A study of Mus musculus with 5 samples.

Results

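The serpin family was compared between quiescent melanocyte stem cells (McSC, here stem cells) and melanocytes of mouse back skin, gene by gene and by clade letter. Members were chosen by gene symbol: every symbol made of Serpin, a clade letter from a to i and a number. This took in 63 of the 24100 genes in the count table, 25 of them in clade A, 27 in clade B and 11 in clades C to I. No expression value entered that rule, but the family was selected with values of this same contrast in view, so the calls below describe the family and support no further statement. Of the 63 genes, 9 had no count in any library, which allows a level of up to 0.0241 CPM in the deepest and 0.171 CPM in the shallowest library (3 counts; CPM are counts scaled to library size). A filter on low counts kept 43 genes for testing, and the other 20 had at most 47 counts each over all libraries. Genes that passed that filter only through the group in which they were high had to differ, so the tested genes do not stand for the whole family.

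Serpins are single-chain proteins that mostly inhibit serine proteases, and some inhibit cysteine proteases. A protease cuts an exposed stretch near the carboxyl end, the reactive centre loop, and the serpin then snaps shut and traps the enzyme in a covalent complex. The letters of the symbols mark evolutionary clades: clade A holds the secreted antitrypsin and antichymotrypsin genes, clade B the mostly intracellular serpins, and clades C to I hold inhibitors of clotting and complement proteases, non-inhibitory relatives and a collagen chaperone. In the skin, clade B serpins are known from keratinocytes, where they act beside the proteases of the epidermal barrier.

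The series is about BMP signaling between activated melanocyte stem cells and their differentiation. All mice were males of a CD1 and C57Bl6J mixed background that carried the green reporter Dct-eGFP, which is driven by Dct, a gene of the pigment lineage. The 2 stem cell libraries came from mice at postnatal day 60 or 62 whose hair follicles were in their second telogen, the resting phase, with 4 males pooled for each. The 3 melanocyte libraries came from postnatal day 10, in full growth phase (anagen), from mice that also carried the red reporter Lef1-RFP, with 3, 2 and 4 males pooled. Both populations were sorted as green cells with medium to low integrin α6 and without CD31, CD45, CD140a, Sca1 and CD34, and the melanocytes were also sorted as Lef1-RFP and c-Kit positive. Age, hair cycle stage, reporter and gate thus differ together between the groups and cannot be told apart. In bulk libraries, fewer cells of a type and less RNA per cell cannot be told apart either.

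Total counts ran from 17512381 to 124530834 per library. Melanocyte replicate 1 stood apart: the summed level of 12 pigment lineage markers was 3249 CPM in it, against 18902 and 20604 CPM in the other melanocyte libraries and 21645 and 22884 CPM in stem cells. The summed level of 14 fibroblast and dermal papilla markers was 5824 CPM in that library, 2243 and 2110 CPM in the other melanocyte libraries and 106 and 71.9 CPM in stem cells, with none of the markers at 0. Of those fibroblast markers, 12 were higher and 0 lower in melanocytes. Melanocyte replicate 1 was the highest melanocyte library for 24 of the 43 tested serpins, or 55.8%, against 37.4% of all tested genes. Of the pigment lineage markers, 4 were higher in stem cells and 0 in melanocytes, or 6 in melanocytes without replicate 1. Of other markers, 9 of 10 endothelial, 11 of 11 muscle and pericyte and 5 of 10 Schwann cell genes were higher in melanocytes, and 1, 0 and 3 higher in stem cells. For comparison, 29.1% of all tested genes were higher in melanocytes and 26.2% higher in stem cells. The summed level of the Schwann cell markers was higher in stem cells, at 850 and 1071 CPM against 320, 280 and 221 CPM. The endothelial sum and the muscle and pericyte sum were higher in all melanocyte libraries. Where leaving out melanocyte replicate 1, or any other library, moved a fold change that is printed by over 1.5 times, the value without it is given.

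Most tested serpins were higher in stem cells. In the fit over all genes, 25 of the 43 were called higher there and 8 higher in melanocytes, while 10 were not called. Of all 16953 genes tested, 26.2% were called higher in stem cells and 29.1% higher in melanocytes. A call here means an adjusted p under 0.05 from the quasi-likelihood test of edgeR with Benjamini-Hochberg adjustment over all tested genes. The median log2 fold change, melanocyte minus stem cells, was -2.78 over the tested serpins and 0.03 over all tested genes. The 2 and 3 libraries of the groups did not overlap for 35 of the 43 serpins, and 74.5% of all tested genes had groups that did not overlap. Where 14 serpins reached a mean of 1 CPM in both groups, the split was closer, with 4 higher in melanocytes, 6 higher in stem cells and 4 not called. Without stem cell replicate 2, 5 serpins were called higher in melanocytes and 19 higher in stem cells.

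**Figure D1:**
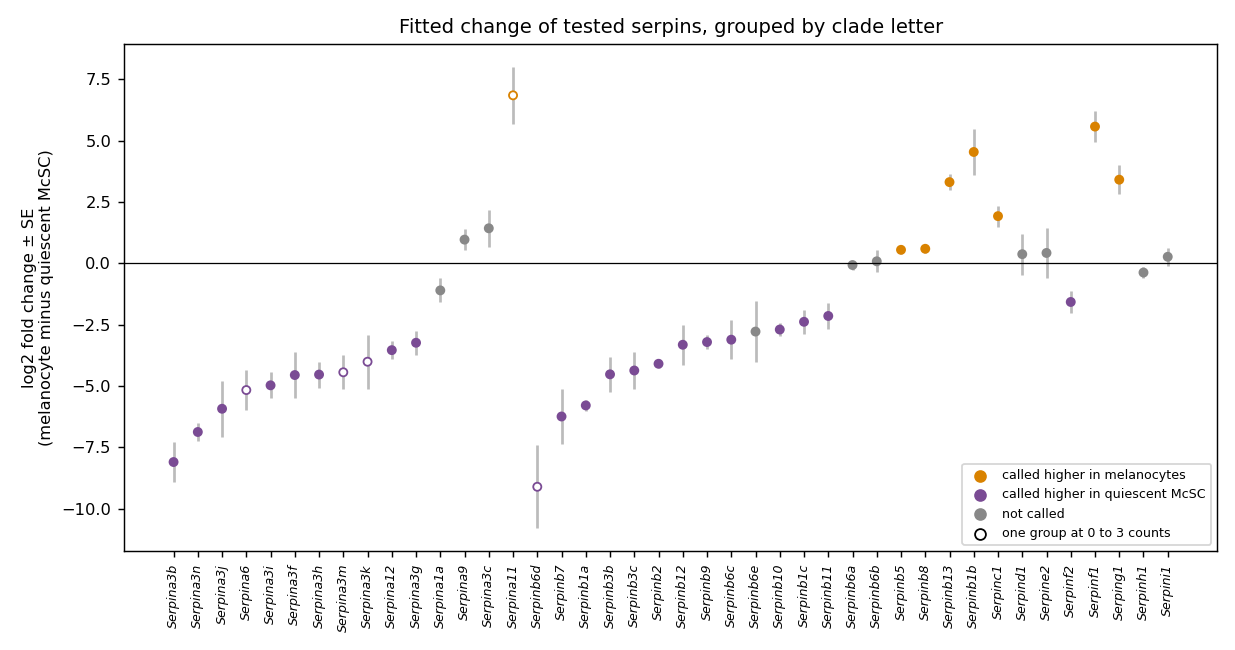
Log2 fold change (melanocyte minus quiescent McSC) with its standard error (SE) for the tested serpins but 1, ordered by clade letter. Colours mark the call, and open circles mark 5 genes with 0 to 3 counts in one group, whose fitted value is no measure of size; most clade A and clade B genes lie below 0.

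The clades differed in what they contributed. In clade A, 11 of 15 tested genes were higher in stem cells and 1 was higher in melanocytes. In clade B, 12 of 19 were higher in stem cells and 4 in melanocytes. In clades C to I, 2 of 9 were higher in stem cells and 3 in melanocytes. The counts of clades C to I were near the shares of all tested genes, 26.2% in stem cells and 29.1% in melanocytes. The median log2 fold change was -4.44 for clade A (-4.53 with the 4 genes of few counts set to their count ratio or bound), -2.78 for clade B and 0.38 for clades C to I. The count of 4 in clade B was 2 without either stem cell library or melanocyte replicate 2, and the count of 2 in clades C to I was 1 without any 1 library other than melanocyte replicate 1. The difference between clades was not tested.

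Summed over all members, serpin RNA came to 1006 and 1146 CPM in the stem cell libraries and to 754, 553 and 454 CPM in the melanocyte libraries. Clade A made up 202 ± 36.6 CPM (SD, n = 2) in stem cells and 5.04 ± 2.66 CPM (SD, n = 3) in melanocytes. Clade B made up 476 ± 22.8 CPM (SD, n = 2) and 255 ± 28.8 CPM (SD, n = 3). The sums thus show clade A mainly in stem cells, and clade B in both populations. The collagen chaperone gene Serpinh1 alone gave 20.7% and 23.7% of serpin CPM in stem cells and between 30.8% and 33.2% in melanocytes.

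**Figure D2:**
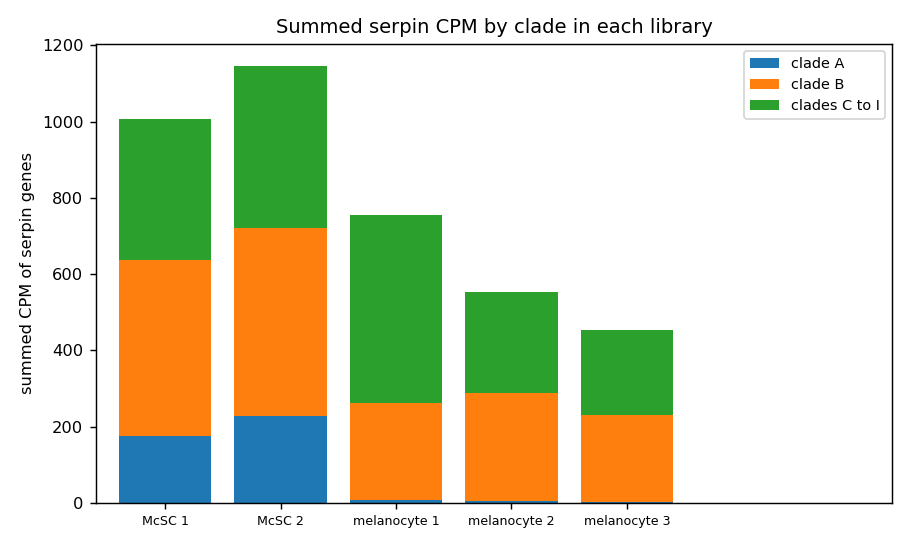
Summed CPM of the serpins in each library, stacked as clade A, clade B and clades C to I; the bars start at 0. Clade A adds 176 and 228 CPM in the quiescent McSC libraries and at most 8.07 CPM in a melanocyte library.

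Scaled to transcript length (TPM computed from exonic length), the order of the members also changed. In stem cells, Serpinh1 at 327 ± 54.1 and Serpinb1a at 265 ± 37.9 led, and Serpina3n at 98.8 ± 36.2 was among the genes that came after them (SD, n = 2). The neighbours Serpinh1 and Serpinb1a overlapped within their SD, as did Serpina3n, Serpinb5 at 92.8 ± 23.8 and Serpina3b at 92.6 ± 0.944. In melanocytes the order on the same length-scaled levels was Serpinh1 at 288 ± 81.0, Serpinb5 at 155 ± 17.6, Serpinf1 at 92.3 ± 45.1 and Serping1 at 52.5 ± 37.5 (SD, n = 3). Serpinb5 and Serpinf1 overlapped within their SD, as did Serpinf1 and Serping1, and so did Serping1 and Serpinb6a at 49.3 ± 7.68. Serpinh1 had the highest mean in both populations, while the places behind it were taken by different serpins. In stem cell replicate 1, however, Serpinb1a at 291 was above Serpinh1 at 288.

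**Figure D3:**
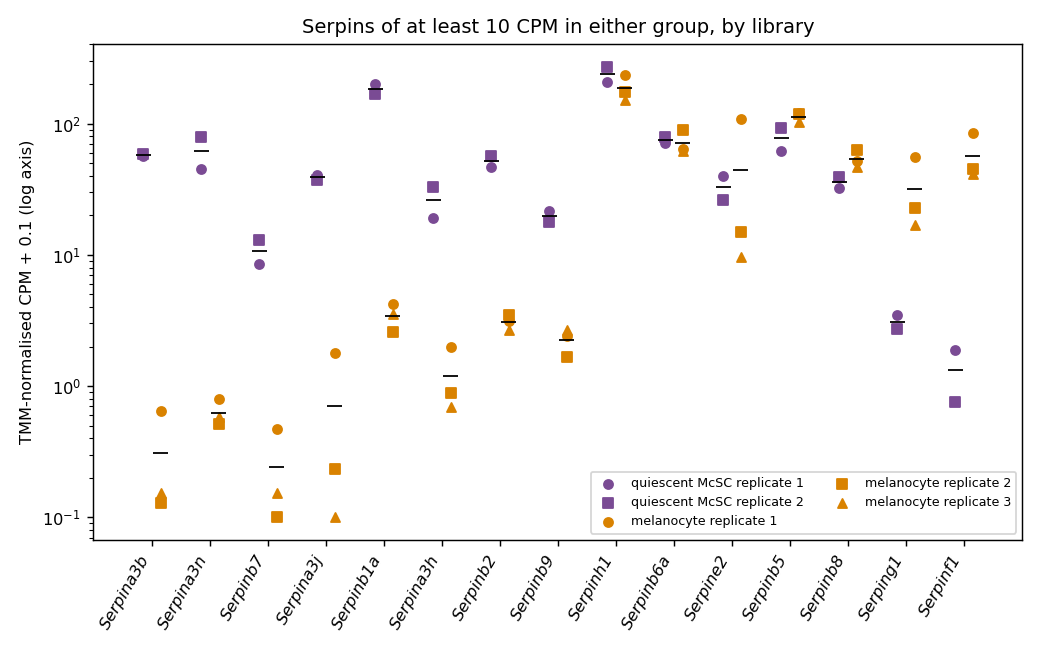
TMM-normalized CPM in each library for serpins with a mean of at least 10 CPM in either group (1 is not drawn), drawn on a log10 axis after adding 0.1; black lines are group means. Serpina3b, Serpina3n and Serpinb1a separate the groups widely, while Serpinb6a, Serpinh1 and Serpine2 overlap.

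Clade A was led by the Serpina3 genes, the mouse expansion of the single human antichymotrypsin gene. Serpina3b (chr12:104127986-104139546, GRCm38) had 56.3 and 58.8 CPM in stem cells and 0.543, 0.0293 and 0.0535 CPM in melanocytes. Its level was 274-fold higher in stem cells, a log2 fold change of -8.10 ± 0.83 (SE). Serpina3n (chr12:104406646-104414334), which encodes a secreted inhibitor of granule proteases such as cathepsin G, had 44.7 and 78.3 CPM against 0.691, 0.411 and 0.481 CPM. The groups lay far apart for both genes, and the fold of Serpina3n was 117, a log2 fold change of -6.87 ± 0.36 (SE). Serpina3j had 40.6 and 37.0 CPM against 1.68, 0.132 and 0 CPM, so that most of its melanocyte counts came from replicate 1. Its log2 fold change was -5.92 ± 1.13 (SE) with that library and -8.56 without it. Serpina3b likewise went from -8.10 to -10.62 without melanocyte replicate 1, and to -7.33 without replicate 2, with 25 melanocyte counts in all, 22 of them in replicate 1. Serpina3h, a transcribed pseudogene in RefSeq, had 19.0 and 32.7 CPM against 1.90, 0.792 and 0.588 CPM, a log2 fold change of -4.53 ± 0.53 (SE) and of -5.15 without melanocyte replicate 1.

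Of 11 Serpina3 genes, 10 were tested, 9 of these were called higher in stem cells and 0 higher in melanocytes. Serpina3f, Serpina3g and Serpina3i were called at lower levels, with means between 1.34 and 5.54 CPM in stem cells. Of these, Serpina3f had melanocyte counts in replicate 2 only, and its log2 fold change of -4.55 was -3.95 without melanocyte replicate 1. Without replicate 2 no melanocyte count was left, so no fold is given. Serpina3c was the tested member that was not called, at 0.0794 ± 0.0239 CPM (SD, n = 2) in stem cells and 0.191 ± 0.135 CPM (SD, n = 3) in melanocytes. Serpina3m and Serpina3k had 2 and 3 counts over all melanocyte libraries. Their count ratios were 24.1 (exact 95% interval 6.42 to 203) and 19.7 (6.52 to 97.7), and the interval covers counting error only. All 3 melanocyte counts of Serpina3k came from replicate 1, so no fold is given without that library. Its fitted log2 fold change of -4.01 was -3.12 without melanocyte replicate 2 and -3.33 without stem cell replicate 2. The call of Serpina3k was lost without stem cell replicate 1 (adjusted p = 0.0515), without stem cell replicate 2 (0.128) and without melanocyte replicate 2 (0.0536), by edgeR.

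The Serpina3 genes are close copies, so their reads can be split between them. Serpina3h shared 39.8%, Serpina3m 35.0%, Serpina3g 28.4%, Serpina3f and Serpina3i 27.3% each and Serpina3k 24.2% of their 31-base stretches with another gene, while Serpina3n shared 21.6%, Serpina3j 11.5% and Serpina3b 7.99%. Values of these genes, least so Serpina3j and Serpina3b, are uncertain for that reason, and the exons of Serpina3k and Serpina3m also overlap on the same strand. The coding bases of the reactive centre loop show where the copies differ. They are printed because this loop sets which protease a serpin can trap. The reading frame of the pseudogene Serpina3h came to 216 residues against 418 for Serpina3n, so its bases need not encode an inhibitor. No loop was read for Serpina3b. Each line gives 75 bases from the first codon of the hinge, read from GENCODE M21 transcripts (GRCm38, chromosome 12), with capitals where a base differs from Serpina3n.
Serpina3n: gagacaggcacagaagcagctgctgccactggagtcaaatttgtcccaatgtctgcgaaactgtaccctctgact
Serpina3i: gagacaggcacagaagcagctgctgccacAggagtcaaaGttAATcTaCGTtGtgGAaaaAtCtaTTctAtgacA
Serpina3h: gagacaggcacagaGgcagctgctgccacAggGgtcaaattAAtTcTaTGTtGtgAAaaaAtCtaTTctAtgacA
Serpina3j: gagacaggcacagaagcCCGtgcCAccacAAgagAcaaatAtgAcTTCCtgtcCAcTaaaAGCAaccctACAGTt
Serpina3f: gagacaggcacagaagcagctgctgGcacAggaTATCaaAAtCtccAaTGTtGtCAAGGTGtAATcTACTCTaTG
Serpina3k: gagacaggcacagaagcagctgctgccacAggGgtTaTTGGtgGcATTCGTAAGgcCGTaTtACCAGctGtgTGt
Over the 8 copies that could be set against Serpina3n, the first 33 bases, which encode the hinge, held between 1 and 7 differences. The following 42 bases held between 16 and 30. The copies that were higher in stem cells thus included genes with unlike loops, such as Serpina3n, Serpina3j and Serpina3f.

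Outside the Serpina3 genes, clade A was low. Serpina12, which encodes vaspin, an inhibitor of kallikrein 7, had 6.11 ± 1.38 CPM (SD, n = 2) in stem cells and 0.516 ± 0.161 CPM (SD, n = 3) in melanocytes and was called higher in stem cells. Serpina6, the gene of corticosteroid-binding globulin, had 61 counts over the stem cell libraries and 1 over the melanocyte libraries, a ratio of 44.6 (exact 95% interval 7.71 to 1790), and that 1 count came from melanocyte replicate 2. Serpina11 went the other way, with 28 counts in melanocytes and 0 in stem cells, which puts it at least 12.8-fold higher against a floor of 3 counts over the group. It shared 37.2% of its 31-base stretches with the overlapping gene Gm28577, so its counts are uncertain. Serpina1a, an antitrypsin gene, and Serpina9 were not called, at 0.348 and 0.388 CPM in stem cells and 0.166 and 0.760 CPM in melanocytes. The untested Serpina1b had 20 counts in stem cells and 0 in melanocytes. Serpina1a and Serpina1b shared 65.2% and 44.7% of their 31-base stretches with other genes, so their counts are uncertain too.

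The 24 clade A genes of chromosome 12 lie within 797660 bases (chr12:103616675-104414334). The called genes were not spread evenly along it: from Serpina3b to Serpina3n, 10 genes in a row were tested, and Serpina3c was the single one of them that was not called. At the other end, from Serpina10 to Serpina1e, only Serpina6 and Serpina1a were tested, and Serpina6 was called. The other genes of that end had too few counts to be tested. Next to the cluster, Ppp4r4 was also higher in stem cells, at 7.92 ± 0.523 CPM (SD, n = 2) against 1.79 ± 0.375 CPM (SD, n = 3), and Dicer1 and Clmn on the far side were not called.

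**Figure D4:**
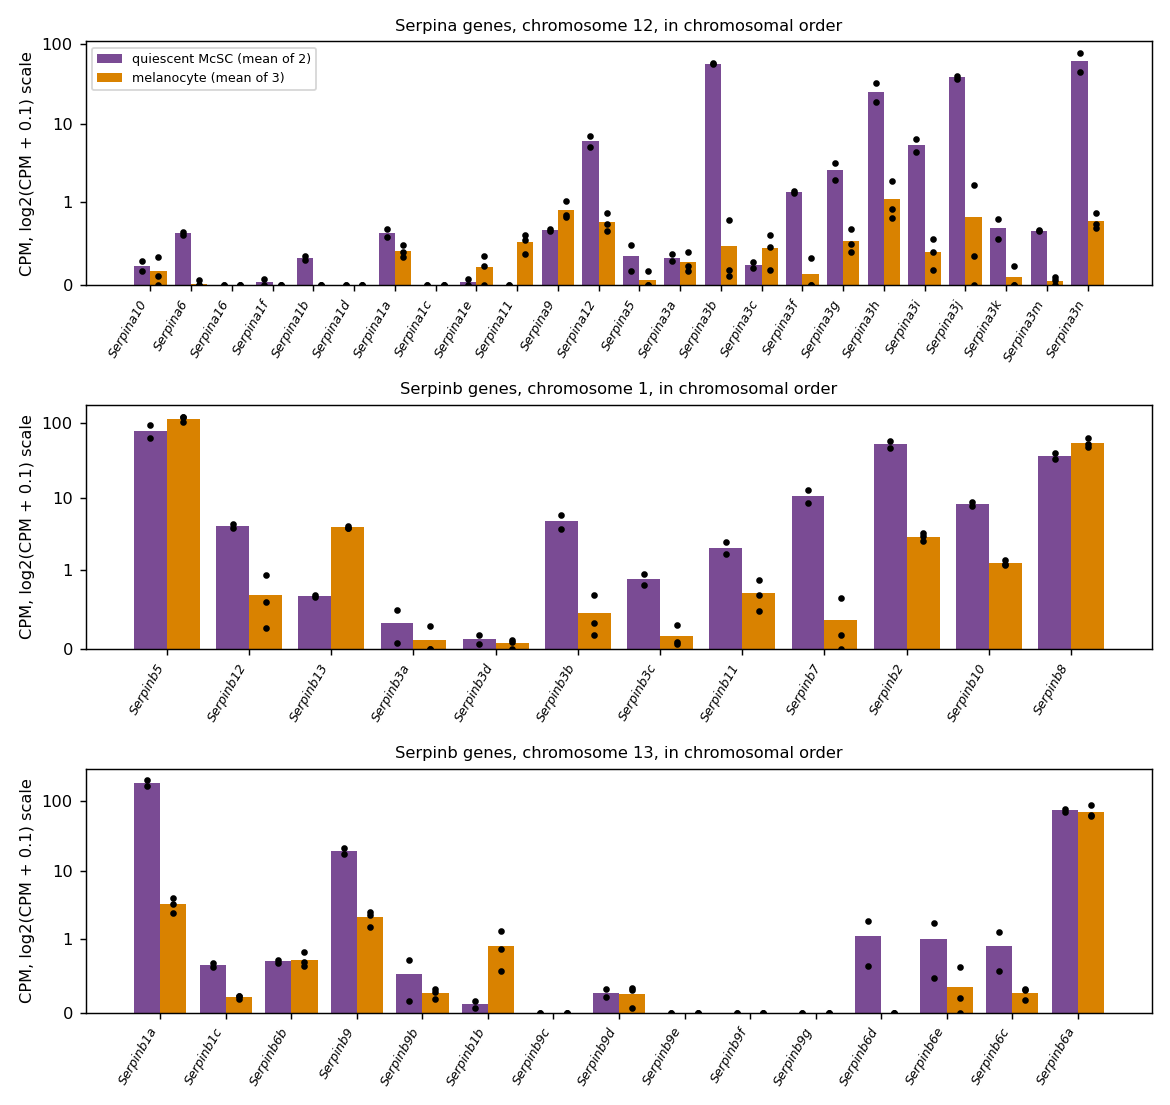
Mean CPM in quiescent McSC (n = 2) and melanocytes (n = 3) for the serpins of the 3 clusters in chromosomal order, with library values as points, on a log2(CPM + 0.1) scale that starts at 0 CPM. The higher quiescent McSC bars fill the Serpina3 end of the first cluster, and in the second Serpinb5, Serpinb13 and Serpinb8 have the higher melanocyte bars.

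Clade B is split between 2 clusters. On chromosome 1, 12 genes lie within 747804 bases (chr1:106861175-107608978), 10 were tested, 7 were higher in stem cells and 3 in melanocytes. The 3 higher in melanocytes, Serpinb5, Serpinb13 and Serpinb8, stood near the ends. The tested genes from Serpinb3b to Serpinb10 were all called higher in stem cells. So was Serpinb12, which lies between Serpinb5 and Serpinb13 near 1 end. Serpinb2 (chr1:107500892-107525600), the gene of plasminogen activator inhibitor 2, which inhibits urokinase, had 46.3 and 56.2 CPM in stem cells and 3.01, 3.37 and 2.57 CPM in melanocytes. The groups lay apart by 17.0-fold, a log2 fold change of -4.09 ± 0.19 (SE). Serpinb7, an epidermal serpin also called megsin, had 8.45 and 12.8 CPM against 0.370, 0 and 0.0535 CPM, a log2 fold change of -6.24 ± 1.11 (SE). Of its 16 melanocyte counts, 15 came from replicate 1, without which the value was -9.59, resting on 1 count, and it was -5.44 without replicate 2. Serpinb10, a polymorphic pseudogene in GENCODE M21, had 8.19 ± 0.805 CPM (SD, n = 2) against 1.27 ± 0.106 CPM (SD, n = 3). Its exons overlap those of Serpinb2 on the same strand, so their reads can be shared.

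Serpinb3b and Serpinb3c, mouse relatives of the squamous cell carcinoma antigens that inhibit cysteine cathepsins, were also higher in stem cells, at 4.80 and 0.747 CPM against 0.197 and 0.0488 CPM. Their log2 fold changes of -4.52 and -4.36 moved to -5.56 for Serpinb3b without melanocyte replicate 1, and to -3.77 and -5.20 for Serpinb3c, which had 4 melanocyte counts in all, without replicates 2 and 3. These copies shared 35.4% and 28.7% of their 31-base stretches with another gene. Serpinb12, an inhibitor of trypsin-like proteases, had 4.18 ± 0.383 CPM (SD, n = 2) against 0.424 ± 0.398 CPM (SD, n = 3), and Serpinb11 had 2.10 ± 0.589 against 0.451 ± 0.254 CPM. By edgeR, the call of Serpinb12 was lost without either stem cell library (adjusted p = 0.056 without replicate 1 and 0.0678 without replicate 2). The log2 fold change of Serpinb12 was -3.31, and -4.71 without melanocyte replicate 1. The call of Serpinb11 was lost without stem cell replicate 2 (adjusted p = 0.0958).

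Serpinb5 (chr1:106861175-106883348) encodes maspin, a non-inhibitory serpin of epithelia. It had 61.8 and 91.9 CPM in stem cells and 119.6, 118 and 102 CPM in melanocytes. All melanocyte libraries were higher, but by 1.47-fold, a log2 fold change of 0.56 ± 0.19 (SE). This call did not hold without stem cell replicate 1 (adjusted p by edgeR 0.216), melanocyte replicate 1 (0.0542), replicate 2 (0.125) or replicate 3 (0.0567). Serpinb8, an inhibitor of the proprotein convertase furin, had 32.4 and 38.9 CPM against 51.5, 63.3 and 46.9 CPM. Its 1.51-fold difference, a log2 fold change of 0.60 ± 0.17 (SE), lost its call without stem cell replicate 1 (adjusted p by edgeR 0.156), stem cell replicate 2 (0.0584) or melanocyte replicate 2 (0.0635). Serpinb13, or headpin, which inhibits cathepsins K and L, was steadier. It had 0.385 and 0.411 CPM in stem cells and 4.14, 3.91 and 3.90 CPM in melanocytes, a 9.96-fold difference and a log2 fold change of 3.32 ± 0.32 (SE).

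On chromosome 13, 15 clade B genes lie within 1160703 bases (chr13:32842092-34002794), 9 were tested, 5 were higher in stem cells and 1 in melanocytes. Serpinb1a (chr13:32842092-32853206), an intracellular inhibitor of neutrophil elastase, proteinase 3 and cathepsin G, had 198 and 167 CPM in stem cells and 4.12, 2.48 and 3.42 CPM in melanocytes. This 55.2-fold difference, a log2 fold change of -5.79 ± 0.24 (SE), was the largest difference in mean CPM among clade B genes. Its copies moved apart: Serpinb1c was higher in stem cells, at 0.369 against 0.0669 CPM, and Serpinb1b was higher in melanocytes, at 0.779 against 0.033 CPM. The calls of both low copies were lost without stem cell replicate 2, with adjusted p by edgeR of 0.0609 for Serpinb1c and 0.0681 for Serpinb1b, whose log2 fold change of 4.55 was 5.24 and 3.90 without stem cell replicates 1 and 2. Serpinb9 (chr13:32997061-33017955), the gene of a granzyme B inhibitor that protects cells from their own or foreign granules, had 21.5 and 17.7 CPM against 2.32, 1.57 and 2.57 CPM. Its groups did not overlap, and its log2 fold change was -3.20 ± 0.28 (SE).

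The Serpinb6 genes did not move together. Serpinb6a, an intracellular inhibitor of cathepsin G and trypsin-like proteases, had 70.6 and 78.7 CPM in stem cells and 63.9, 88.7 and 61.5 CPM in melanocytes, and the groups overlapped. Its log2 fold change was -0.06 ± 0.18 (SE) and 0.15 when libraries were scaled by size only. Ripk1, on the opposite strand, overlaps exons of Serpinb6a and had 448 CPM in stem cells and 32.3 CPM in melanocytes, and in libraries without strand the reads of such a pair cannot be told apart. Serpinb6b was not called, at 0.438 and 0.465 CPM. Serpinb6d, Serpinb6e and Serpinb6c stand next to each other, and stem cell replicate 2 was 5.39-fold, 8.52-fold and 4.51-fold above replicate 1 for them. Serpinb6d had 0.353 and 1.90 CPM in stem cells and 0 in all melanocyte libraries, at least 57.3-fold higher against a floor of 3 counts over the group. Of its 235 stem cell counts, 213 came from replicate 2, and the bound was 14.99 without that library and 80.8 without replicate 1. Serpinb6c was called higher in stem cells, with a log2 fold change of -3.11, -3.80 without stem cell replicate 1 and -1.63 without replicate 2, but not without stem cell replicate 2 (adjusted p by edgeR 0.162) or melanocyte replicate 2 (0.0522). Serpinb6e was not called with all libraries and was called without melanocyte replicate 1 (adjusted p by edgeR 0.0218).

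The serpins were searched for short motifs in the 250 bases before RefSeq start sites (GRCm38.p6), where 53 of the 63 had an entry. Both strands were searched, and some start sites lie inside the gene's interval, such as those of Serpinb2 (10531 bases from its first base), Serpinb9 (7480 bases) and Serpinb8 (80 bases). TGAGTCA or TGACTCA, the consensus bound by AP-1, was in 6 of the 53 windows, or 11.3%, and in 5.16% of the windows of all 27025 genes; this stricter form was searched after the looser one had been seen. It stood in 2 of the 11 chromosome 1 genes with a window, Serpinb7 and Serpinb8, and in the 4 windows of Serpina1a, Serpina1b, Serpina1c and Serpina1d. The bases around the match were nearly the same in these 4 gene copies, between 229 and 240 bases before the start site. The serpin share given above, and that of the looser form below, thus count 1 copied stretch 4 times. The looser TGANTCA, with any base in the middle, was in 11 serpin windows, or 20.8%, and in 7.82% of all gene windows. Of these 11, 7 were chromosome 1 genes, 5 of them without the consensus, and 0 of 14 chromosome 13 genes held it. Of the 7, 5 were called higher in stem cells and 2 higher in melanocytes. One stretch of each kind is shown from that cluster, on the plus strand and before the gene's interval, with the match in capitals. Serpinb7 was higher in stem cells (chr1:107422628-107422666), and Serpinb5 was higher in melanocytes (chr1:106861019-106861057).
Serpinb7: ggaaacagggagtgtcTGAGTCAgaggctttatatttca
Serpinb5: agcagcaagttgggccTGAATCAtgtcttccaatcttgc
A list of 24 immediate early and dissociation stress genes includes Fos and Jun of AP-1. Of these, 22 were higher in stem cells and 1 in melanocytes, against 26.2% and 29.1% of all tested genes. The median log2 fold change of these 24 genes was -2.59. Their summed level was 32098 and 49127 CPM in stem cells and between 3655 and 4037 CPM in melanocytes, and their part in the serpin values was not tested.

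TTCNNNGAA, the palindrome bound by STAT factors, was in 8 of the 53 serpin windows and in 8.13% of all gene windows. It stood in 3 of 8 Serpina3 windows. The windows of Serpina3b, Serpina3n and Serpina3j, which were higher in stem cells, did not hold it, and that of Serpina11, higher in melanocytes, did. The start site of Serpina3j lies 13848 bases inside its interval, so its window is not the stretch before the gene's first base. The 3 Serpina3 stretches resemble each other. They are shown because all 3 genes were higher in stem cells, as were 9 of the 10 tested Serpina3 genes. The positions, on the plus strand, are chr12:104214407-104214447, chr12:104236098-104236138 and chr12:104263004-104263044.
Serpina3f: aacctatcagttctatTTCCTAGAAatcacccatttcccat
Serpina3g: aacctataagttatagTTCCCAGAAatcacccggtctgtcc
Serpina3i: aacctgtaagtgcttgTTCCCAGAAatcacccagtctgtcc
The core of the interferon response element, a pair of GAAA repeats with any pair of bases between them, was in 2 windows, those of Serpinb6a and Serpinb9, against 3.46% of all gene windows. CACGTG, the E-box letters bound by MITF, was in 0 of 53 serpin windows and in 6.86% of all gene windows. Of 24 interferon response genes, 22 were higher in stem cells and 0 in melanocytes, against 26.2% and 29.1% of all tested genes. The median log2 fold change of these 24 genes was -3.06. Their summed level was 3185 and 2882 CPM in stem cells and between 230 and 279 CPM in melanocytes. The part of this in the serpin values was not tested.

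Markers of keratinocytes, in which many clade B serpins are known, were present in both populations. Of 15 markers, 7 were higher in melanocytes and 6 higher in stem cells, with none at 0. Among all tested genes, 29.1% were higher in melanocytes and 26.2% in stem cells. The summed level of the keratinocyte markers was 3833 and 5300 CPM in stem cells and 4870 to 6304 CPM in melanocytes. The differentiation keratin Krt10 had 657 and 1261 CPM in stem cells and 70.5, 14.3 and 37.1 CPM in melanocytes, and the basal keratin Krt5 had 662 and 756 CPM against 1786, 1332 and 1245 CPM. Hair follicle and hair shaft markers went with the melanocytes: 16 of 17 were higher there and 1 higher in stem cells (0 without any 1 library other than melanocyte replicate 1), with summed levels of 4112 to 6333 CPM against 173 and 174 CPM and with Krt34 at 0 in stem cells. The part of these cells in the values of clades A and B was not tested.

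In clades C to I, 3 serpins were higher in melanocytes. Serpinf1 (chr11:75410029-75422623) encodes the pigment epithelium-derived factor, a secreted, non-inhibitory serpin. It had 1.80 and 0.652 CPM in stem cells and 85.0, 45.0 and 40.8 CPM in melanocytes. All melanocyte libraries were far above, by 47.8-fold, a log2 fold change of 5.58 ± 0.62 (SE), which was 5.19 without melanocyte replicate 1, 6.44 without stem cell replicate 1 and 4.98 without stem cell replicate 2. Serping1 (chr2:84765360-84775444) encodes the C1 inhibitor, which blocks the first complement proteases and plasma kallikrein. It had 3.35 and 2.61 CPM against 55.4, 22.8 and 16.8 CPM, a log2 fold change of 3.42 ± 0.59 (SE) and of 2.75 without melanocyte replicate 1. Replicate 1 was the highest melanocyte library for both genes, as it was for the fibroblast marker sum given above, and the part of fibroblast RNA in these values was not tested. Serpinc1, the antithrombin gene, was low, at 0.285 ± 0.0501 CPM (SD, n = 2) and 1.09 ± 0.237 CPM (SD, n = 3). Its exons overlap the opposite-strand gene Zbtb37, with which it shared 33.7% of its 31-base stretches, so its counts are uncertain. Its call was lost without stem cell replicate 2 (adjusted p by edgeR 0.0796).

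Serpine2 (chr1:79794317-79858665) encodes protease nexin 1, which inhibits thrombin and plasminogen activators. It had 39.8 and 26.0 CPM against 108, 14.7 and 9.57 CPM, so that melanocyte replicate 1 alone lay above stem cells and the other melanocyte libraries below. With all libraries the log2 fold change was 0.43 ± 1.01 (SE) and the gene was not called, while without melanocyte replicate 1 it was -1.42 and called (adjusted p by edgeR 0.00418). Serpinf2, the α2-antiplasmin gene, was called higher in stem cells at 0.466 ± 0.137 CPM (SD, n = 2) against 0.157 ± 0.00744 CPM (SD, n = 3). That call was lost when any 1 of the libraries was left out, with adjusted p by edgeR between 0.0512 and 0.187.

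Serpinh1 (chr7:99345375-99353239) encodes Hsp47, a chaperone of the endoplasmic reticulum that binds folding collagen and inhibits no protease. It had 208 and 272 CPM in stem cells and 232, 174 and 151 CPM in melanocytes, and the groups overlapped. The log2 fold change was -0.37 ± 0.22 (SE), not called, and -0.56 and called without melanocyte replicate 1 (adjusted p by edgeR 0.0233). Serpini1, the neuroserpin gene, and Serpind1, the heparin cofactor II gene, were not called, at 1.55 ± 0.225 and 0.146 ± 0.0427 CPM (SD, n = 2) in stem cells and 1.88 ± 0.482 and 0.169 ± 0.161 CPM (SD, n = 3) in melanocytes.

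The proteases, cofactors and receptors that serpins act with were taken from lists. For the plasminogen system, 4 of 11 tested genes were higher in melanocytes and 3 higher in stem cells, near the 29.1% and 26.2% of all tested genes, and the first count was 2 without either stem cell library. Plat, the tissue plasminogen activator gene, had 785 ± 38.0 CPM (SD, n = 2) in stem cells and 117 ± 69.8 CPM (SD, n = 3) in melanocytes. Plau, the urokinase gene, had 4.22 ± 1.81 CPM against 21.3 ± 0.664 CPM, opposite to its inhibitor gene Serpinb2. Lrp1, a receptor that clears complexes of serpin and protease, had 31.7 ± 3.57 against 185 ± 106 CPM. Adjusted p-values by edgeR were 0.00749, 0.00136 and 0.00653 for these genes.

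Of 9 genes of complement C1 and the lectin pathway, 7 were higher in melanocytes, where 29.1% of all tested genes were, with C1s1 at 1.78 ± 0.863 CPM (SD, n = 2) and 31.1 ± 7.27 CPM (SD, n = 3) and C1ra at 0.698 ± 0.0786 and 10.3 ± 4.65 CPM. These are the proteases that the Serping1 product blocks. The other called gene, Masp2, was higher in stem cells, but not without stem cell replicate 1, melanocyte replicate 2 or melanocyte replicate 3, where the count was 0. The C1q genes C1qa, C1qb and C1qc were among the 7, and C1qa and C1qb were also on the immune marker list, of which 8 of 13 tested genes were higher in melanocytes and 2 in stem cells (0 without stem cell replicate 2 and 1 without stem cell replicate 1 or melanocyte replicate 2 or 3). Of 9 tested coagulation genes, F3 and Procr were higher in melanocytes. Tfpi, which encodes the tissue factor pathway inhibitor, was higher in stem cells, at 81.4 ± 5.37 against 16.7 ± 0.724 CPM. These counts of 2 and 1 stand beside 29.1% and 26.2% of all tested genes. The count of 2 was 1 without stem cell replicate 2 or melanocyte replicate 2, and the count of 1 was 3 without stem cell replicate 2. The thrombin gene F2, a target of Serpinc1, Serpind1 and Serpine2 products, was not tested, at 0.201 and 0.00822 CPM.

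Of 12 tested epidermal trypsin-like and chymotrypsin-like proteases, 3 were higher in melanocytes and 3 higher in stem cells. Both shares were near the 29.1% and 26.2% of all tested genes. St14, the matriptase gene, had 17.9 ± 1.40 CPM (SD, n = 2) in stem cells and 293 ± 14.6 CPM (SD, n = 3) in melanocytes. Klk5 had 13.7 ± 6.84 against 0.492 ± 0.295 CPM and was higher in stem cells. Klk7, the target of vaspin, had 20.2 ± 9.16 against 5.92 ± 4.44 CPM and was not called (adjusted p by edgeR 0.052). The 3 calls in stem cells became 1 without stem cell replicate 1, stem cell replicate 2 or melanocyte replicate 3, and 6 without melanocyte replicate 1.

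Of 7 tested granule serine proteases, 6 were higher in melanocytes, where 29.1% of all tested genes were. Among these 6 were the mast cell genes Cma1 at 0.158 ± 0.185 CPM (SD, n = 2) against 10.5 ± 2.07 CPM (SD, n = 3) and Mcpt4 at 0.201 ± 0.260 against 7.15 ± 3.82 CPM. Gzmm was higher in stem cells, at 4.15 ± 0.941 against 0.747 ± 0.347 CPM. Gzmb, whose product the Serpinb9 protein inhibits, had 0 counts in all 5 libraries, as did Gzma and Gzmk. Of 11 cathepsins, Ctss was higher in melanocytes and Ctso higher in stem cells, and without melanocyte replicate 1 these counts were 3 and 3. With all libraries, both counts were below the shares of all tested genes, 29.1% and 26.2%. Ctsl, a target of the Serpinb13 product, had 303 ± 3.65 CPM (SD, n = 2) and 261 ± 91.5 CPM (SD, n = 3) and was not called.

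Of 16 genes that act with Serpinh1 in collagen folding and secretion, 5 were higher in melanocytes and 4 higher in stem cells, near the shares of all tested genes, with a median log2 fold change of 0.34. The first count was 1 without either stem cell library, and the second was 2 without stem cell replicate 2. Among protease inhibitors that are not serpins, 5 of 14 tested genes were higher in melanocytes and 5 higher in stem cells. Over all tested genes the shares were 29.1% and 26.2%. Spint1 and Spint2, Kunitz-type inhibitors of matriptase, had 10.9 ± 2.19 and 35.5 ± 2.53 CPM (SD, n = 2) in stem cells and 99.9 ± 5.35 and 170 ± 29.0 CPM (SD, n = 3) in melanocytes, the direction of St14. Timp2, a metalloprotease inhibitor gene, and Cst3, the cystatin C gene, had 430 ± 53.1 and 377 ± 9.65 CPM in stem cells against 62.6 ± 24.0 and 89.4 ± 7.92 CPM. The median log2 fold change of these other inhibitors was 0.13, beside -2.78 for the tested serpins.

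**Figure D5:**
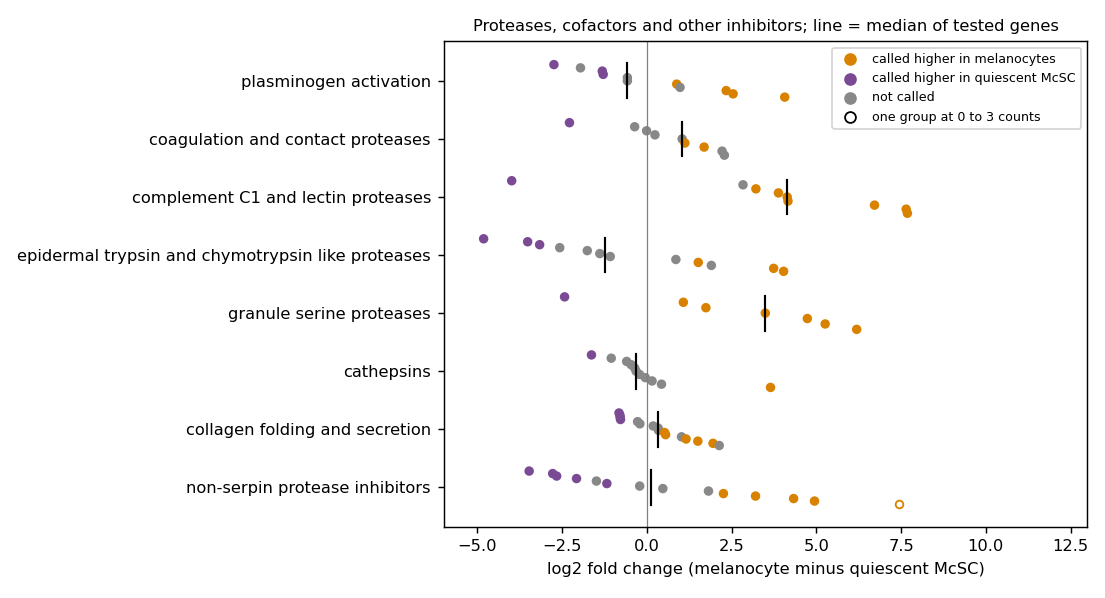
Log2 fold change (melanocyte minus quiescent McSC) of the tested genes in 8 lists of proteases, cofactors and other inhibitors, with a black line at each list's median; the open circle is a gene with 0 to 3 counts in one group. Complement C1 and granule protease genes lie mostly to the right, and the other lists lie on both sides of 0.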

How the data were processed

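Per the labels, RNA of sorted cells was poly-A selected and sequenced without strand information, giving 2 libraries of quiescent McSC (stem cells) and 3 of melanocytes. The deposited table holds whole-number counts per gene (Entrez identifier) and library, used as deposited. The submitters' processing notes name STAR 2.5.2a, Salmon 0.8.2 and the build mm10; the counting step is not given in the sources used here. Symbols came from RefSeq and matched 24045 of 24100 genes. Coordinates are RefSeq's on GRCm38.p6, of which mm10 is the chromosome set.

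Genes were filtered with filterByExpr, scaled by TMM and tested two-sided by edgeR's quasi-likelihood F-test (edgeR 4.0.16, R 4.3.3) over all 5 libraries without covariates, with Benjamini-Hochberg adjustment at 0.05. CPM values are TMM-normalized, given as mean ± SD, and each SE is the log2 fold change divided by the root of F. The procedure was also run on simulated counts in which only genes of at least 5 CPM were changed, so that run does not cover the lower serpins. Length-scaled levels used exonic lengths of GENCODE M21, as did the search for shared 31-base stretches. The bases before start sites came from RefSeq, and the coding bases of the reactive centre loop were read from the longest open reading frame of each transcript. For genes at 0 in a whole group, the fold is a bound that puts 3 counts in their place; for groups holding 1 to 3 counts, the ratio is given with an exact 95% conditional binomial interval. Both cover counting error only.

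Serpins with a mean of at least 10 CPM in either group are given by library, except 1 member that is counted but not reported here, and those of at least 1 CPM were counted (28 genes); other low members were named after their values were seen. From each partner list, up to 3 called genes per direction with the smallest p and the textbook targets of described serpins could be named; other list members named in the text were chosen after their values were seen. The members and lists were chosen with earlier results of these data known. Replicate numbers are titles only, and the labels call the libraries biological replicates of pooled animals. Alternatives were other size factors, library size only, no filter, 5 CPM in 2 libraries, a replicate block, limma-voom (limma 3.58.1), DESeq2 1.42.0 and leaving out each library; fits with 1 stem cell library left take its spread to be that of the melanocytes.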

Additional observations from a re-analysis of the deposited data

How the results depend on the processing

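Of the 33 called serpins, 23 kept call and direction in every alternative that tested them and 10 lost the call in at least 1. With 5 CPM in 2 libraries, which tested 17 serpins, 4 were called higher in melanocytes and 10 in stem cells (clade A 0 and 4, clade B 2 and 5, clades C to I 1 in stem cells). Leaving out 1 library gave 5 to 7 and 19 to 27 serpins, 10 to 11 clade A genes higher in stem cells, 2 to 3 clade B genes higher in melanocytes and 1 to 3 genes of clades C to I higher in stem cells, a count that was 1 by DESeq2. Over all genes, it gave 2955 to 4857 calls higher in stem cells. Fits with a library left out have fewer degrees of freedom by construction. The log2 fold change of Serpinb6a was 0.15 with library size only, and from -0.28 to 0.036 when 1 library was left out; that of Serpinb6b was -0.0038 and -0.19 without stem cell replicate 2 and melanocyte replicate 1; that of Serpine2 was -0.24 by limma-voom and from -1.42 (without melanocyte replicate 1) to 0.90 with 1 library left out. For the limma-voom value the cause was not tested. Library size only moved the median of all genes from 0.03 to 0.26, and the other scalings to at most 0.07.

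Same-numbered libraries did not deviate together (correlation across genes 0.040 and -0.055). With 2 stem cell libraries, their deviations from the group mean mirror each other, so this check cannot exclude a pairing. With the replicate block, 6 serpins were called higher in melanocytes and 22 in stem cells, 1 of the latter in clades C to I, and the log2 fold change of Serpinb6a was 0.015. The calls of Serpina3k, Serpinb1c, Serpinb5, Serpinc1 and Serpinf2 were lost under it. Of the 15 tested serpins under 1 CPM in both groups, 9 were called and 6 not, and whether depth limits their calls was not tested. Of the partner lists, these counts moved by over 1.5 times under settings that keep all libraries: plasminogen genes higher in stem cells 3 to 5 (DESeq2); coagulation genes 2 to 1 in melanocytes (limma-voom) and 1 to 3 in stem cells (no filter); complement genes higher in stem cells 1 to 0 (5 CPM in 2 libraries, replicate block, limma-voom); epidermal proteases higher in stem cells 3 to 1 (replicate block) or 5 (no filter, limma-voom, DESeq2); granule proteases 6 to 3 and 1 to 0, cathepsins 1 to 0 and other inhibitors 5 to 3, in melanocytes but for the second (5 CPM in 2 libraries); cathepsins higher in stem cells 1 to 2 (DESeq2); and collagen folding genes higher in melanocytes 5 to 3 (replicate block). Schwann cell markers higher in melanocytes fell from 5 to between 2 and 3 without either stem cell library or melanocyte replicate 2. The bounds with a library left out and the stricter AP-1 letters were chosen after seeing the data.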
